A study of Rattus norvegicus with 4 samples.

Results

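Complement is a set of plasma proteins, mostly made by hepatocytes, that tag microbes and damaged cells, recruit leukocytes and open pores in membranes. Antibody complexes start the classical pathway and microbial sugars the lectin pathway, the alternative pathway amplifies both, and all of them cleave C3 before the terminal components C5 to C9 assemble the membrane attack complex. In the mouse liver, C3 and the receptors for its fragments and for those of C5 are known to be needed for normal regrowth after part of the organ is removed, and several components are acute phase proteins whose output follows interleukin signals. The 32 genes described here are components, regulators and receptors of this cascade. The rule that picks them from the table uses gene symbols alone. The table of 31457 rows held 31 of the 32 symbols in 33 rows, because C4a and C5 have 2 rows each. Fcna, which encodes a ficolin, has no row under that symbol.

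Poly(A)-selected RNA of 4 Lewis rat livers (allotype RT1L) was sequenced on an Illumina MiSeq, with 1 library per group. Of these, 3 livers came from partially hepatectomised rats injected into a vein with ASCs-miR27b, with ASCs-siRNC, or with saline, and the other liver was a naive control. They are called here the miR-27b, siRNC, saline and naive livers. The labels spell out neither ASCs, taken here to mean adipose-derived stem cells, nor siRNC, taken to be a control RNA. The sources used here do not give the age of the rats, the cell dose or the time from surgery to collection, and no label says whether RNA of several animals was pooled. Since each group is a single library, differences between livers have no replicate check and were not tested. A gene is called higher or lower only where it was at least 2-fold apart, a log2 fold of 1 or more.

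The miRNA named in the first of these groups is known for silencing genes of lipid metabolism and vessel growth. The labels do not say which arm the cells carried, so both mature rat sequences from RefSeq (GRCr8) are shown with the seed, bases 2 to 8, in capitals, to identify what the group name refers to.
rno-miR-27b-3p: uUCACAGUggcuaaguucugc
rno-miR-27b-5p: aGAGCUUAgcugauuggugaacag

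A deposited value is a log2 value relative to a baseline of its own gene, so it compares the 4 livers within a gene and never one gene with another. Of the 31 symbols, 30 had a value other than 0. C4a, which encodes one of the close copies of C4, was listed at 0 in all 4 libraries in both of its rows. A filter on low levels kept 26 rows of 25 genes, 21 of them more likely than not at 256 or more normalized reads. Below it lay 5 genes, namely Fcnb, Cd55, Cd46, C3ar1 and C5ar1, which are described apart. The SD that counting error puts on a log2 fold is 0.13 when both libraries hold 256 reads of a gene and 0.51 when both hold 16. The filter kept 9644 rows of the whole table. Size factors of the 4 libraries ran between 0.956 and 1.04. All 8 hepatocyte markers examined, Alb among them, were in the class of 256 or more reads.

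Most complement genes had their highest value in the miR-27b liver and their lowest in the naive liver. The miR-27b library held the highest of the 4 values in 19 of the 26 rows, where it did so for 25% of all genes kept, and the lowest value in none, against 26.2% of all genes. The naive library held the lowest value in 18 rows, against 30.1% of all genes. For 14 rows both were true at once, against 13.5% of all genes, and 8 rows ran down in the order miR-27b, siRNC, saline and naive, against 6.29%. Those 8 were C1s, C3, C4b, C8b, C9, Masp1, C4bpa and C4bpb. The range over the 4 livers had a median of 0.68 on the log2 scale, against 0.55 over all genes kept. It was under 1 in 18 of 26 rows (69.2%), against 79.5% of all genes. A highest value in the miR-27b liver was not particular to complement. Of the 8 hepatocyte markers, Alb, Apoa1, Apob, Cps1, Serpina1 and Tf had it too, and Cyp2e1 and Ttr did not. Of 13 acute phase plasma proteins, all but Hamp had their highest value in the miR-27b and their lowest in the naive liver.

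**Figure D1:**
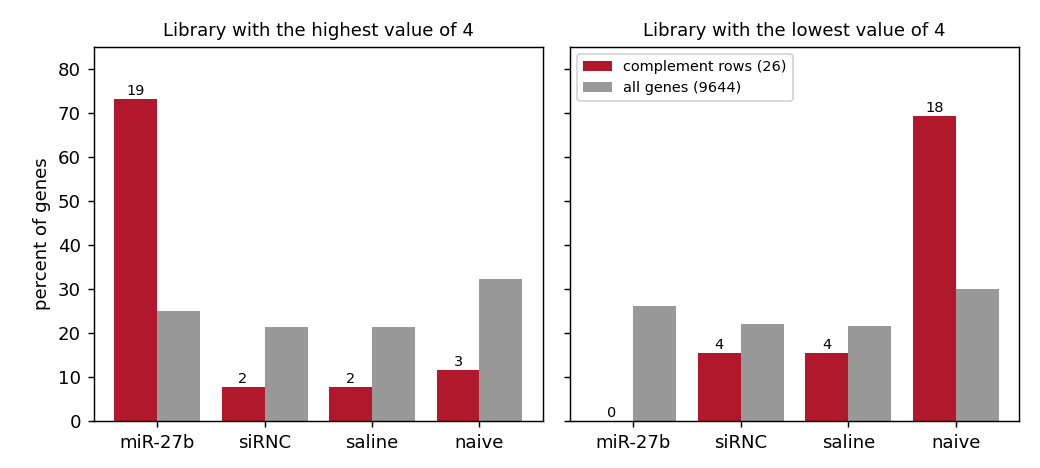
Percent of genes (vertical axis) for which each of the 4 libraries had the highest value (left) or the lowest value (right). Red bars are the 26 complement rows, with their number above each bar, and grey bars all 9644 genes kept. The miR-27b library is highest in 19 rows and lowest in none, and the naive library is lowest in 18.

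Relative to the naive liver, 5 of 26 rows were at least 2-fold higher in the miR-27b liver and none was that far below, where 8.56% and 3.95% of all genes were. In the siRNC liver 2 rows were higher and 1 lower, where 6.23% and 3.34% of all genes were (9.57% either way). In the saline liver 2 rows were higher and 1 lower, where 6.07% and 3.7% of all genes were (9.77% either way). No row was at least 2-fold above naive in all 3 hepatectomised livers, where 3.62% of all genes were. The counts for the siRNC and saline livers are thus near the share of all genes. The medians lay above those of all genes in each case: 0.65 in the miR-27b liver (all genes -0.02), 0.29 in the siRNC liver (all genes -0.0032) and 0.30 in the saline liver (all genes -0.007). Above 0 were 23 of 26 rows in the miR-27b liver (47.8% of all genes), 21 in the siRNC liver (49.7%) and 19 in the saline liver (49.2%). These 3 comparisons share the naive library, so a gene displaced in that liver alone shows in all of them.

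The C1 proteases and C4 open the classical pathway. C1r and C1s encode the proteases that sit on C1q, and C1s cuts C4 and C2. C1r had deposited values of 0.40 in the miR-27b, 0.00 in the siRNC, -0.11 in the saline and -0.10 in the naive liver, so the miR-27b liver stood alone above the other 3. C1s ran down in steps, with 0.24, 0.00, -0.23 and -0.42 in the same order of livers. C2, which supplies the protease of the classical C3 convertase, had 0.41 in the miR-27b, -0.09 in the siRNC, 0.00 in the saline and -0.23 in the naive liver. Against naive, these 3 genes were between 0.51 and 0.66 in the miR-27b liver, short of 2-fold, and between -0.0045 and 0.42 in the other 2 livers. C4b, which encodes one of the copies of C4, differed most. Its values were 0.30 in the miR-27b, 0.00 in the siRNC, -0.12 in the saline and -0.94 in the naive liver. It was 2.37-fold higher in the miR-27b liver than in the naive liver (log2 fold 1.25), and its log2 folds in the siRNC and saline livers were 0.94 and 0.82. All 3 hepatectomised livers stood above the naive liver, the siRNC and saline livers by less than 2-fold, and lay within 0.43 of each other. Reads shared between C4b and the copies of C4, among them C4a and a pair of rows described only as C4-like and also listed at 0, cannot be told apart here.

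Genes of the lectin pathway had no common direction relative to the naive liver. In the miR-27b liver all 4 rows kept were above 0 relative to saline (median 0.28) and to siRNC (median 0.39). Mbl1 and Mbl2 encode the rat mannose-binding lectins A and C, which recognise sugars on microbes, and Masp1 and Masp2 the proteases they carry. Mbl2 had values of 0.00 in the miR-27b, -0.19 in the siRNC, -0.19 in the saline and 0.98 in the naive liver. The naive liver alone was high. Mbl2 was lower than in the naive liver by 2-fold or more in the siRNC liver (log2 fold -1.17) and the saline liver (-1.16), and lay just inside that limit in the miR-27b liver (-0.98). It was the member furthest below naive, in a set where most stood above it. Its relative Mbl1 had 0.32 in the miR-27b, -0.03 in the siRNC, -0.06 in the saline and 0.00 in the naive liver, so only the miR-27b liver differed by more than 0.06 from naive. Masp1 showed the same outline, with 0.49 in the miR-27b liver and 0.00, -0.07 and -0.07 in the siRNC, saline and naive livers. Masp2, which encodes the protease that cuts C4 and C2 in this pathway, had 0.10, -0.34, 0.02 and 0.00, and its low library was the siRNC one.

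The 300 bases around the start of Mbl2 are shown because it was the one member at least 2-fold lower than naive among the rows kept (RefSeq, GRCr8, chr1:237430793-237431092, plus strand, 250 bases before to 50 after the start). It held none of the 3 motifs searched below, so no base is in capitals.
Mbl2: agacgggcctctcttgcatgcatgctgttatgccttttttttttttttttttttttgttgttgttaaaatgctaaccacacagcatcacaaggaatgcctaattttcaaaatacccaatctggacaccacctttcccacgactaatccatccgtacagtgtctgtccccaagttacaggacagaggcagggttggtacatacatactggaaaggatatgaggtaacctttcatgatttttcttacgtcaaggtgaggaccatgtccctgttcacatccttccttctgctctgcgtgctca

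Cfb, Cfd and Cfp serve the alternative pathway. Cfb encodes factor B, the protease of the alternative C3 convertase, and had 0.30 in the miR-27b, -0.07 in the siRNC, 0.00 in the saline and -0.36 in the naive liver. Its log2 folds against naive were 0.65, 0.29 and 0.36 in the miR-27b, siRNC and saline livers. Cfb lies next to C2 on the rat chromosome in RefSeq (GRCr8), and both had their highest value in the miR-27b and their lowest in the naive liver. Cfd encodes factor D, also called adipsin, which cuts factor B and is made mainly by fat cells in other tissues. It had -0.10 in the miR-27b, 0.00 in the siRNC, 0.30 in the saline and -0.96 in the naive liver. Cfd was 2-fold or more higher than naive in the saline liver (1.26) and less than that in the siRNC (0.96) and miR-27b (0.86) livers, so here the saline liver led. Of 6 fat cell markers, 4 (Adipoq, Lep, Plin1 and Plin4) were listed at 0 in all libraries, and the other 2 were kept. Relative to naive, Fabp4 was at 4.50, 3.37 and 2.97 and Cidec at 0.05, -0.44 and -0.33 in the miR-27b, siRNC and saline livers, so Fabp4 had the order of livers opposite to that of Cfd. Their part in the Cfd values was not tested. Cfp encodes properdin, which steadies the convertase and comes from myeloid cells. It had 0.24 in the miR-27b, -0.08 in the siRNC, 0.08 in the saline and -0.95 in the naive liver, and was higher than naive in the miR-27b (1.19) and saline (1.04) livers and at 0.88 in the siRNC liver. Cfd and Cfp were both in the class of 16 or more reads, and with a pseudocount of 5 reads no call remained for either: Cfd was at 0.90 in the saline liver, and Cfp at 0.85 in the miR-27b and 0.73 in the saline liver.

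C3 is the protein on which all pathways converge. Its values were 0.41 in the miR-27b, 0.00 in the siRNC, -0.10 in the saline and -0.59 in the naive liver. C3 thus ran down in steps, and the naive liver was furthest from its neighbour. The miR-27b liver had 1.996 times the naive value (log2 fold 0.997), just short of the 2-fold limit, and the log2 folds of the siRNC and saline livers were 0.59 and 0.49. With the folds centred on the median fold of all genes, C3 was at 1.022 in the miR-27b liver and past that limit.

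Promoters of C3 and of both chains of the C4b-binding protein are shown as examples, chosen after their values were seen, of genes that ran down in the same order of livers. C4b, C8b and Masp1 did so too and have promoters in the RefSeq table that are not printed, of which that of Masp1 held none of the motifs. Each covers 250 bases before to 50 after the RefSeq start (GRCr8), on the minus strand, at chr9:2201290-2201589 for C3, chr13:44663422-44663721 for C4bpa and chr13:44683732-44684031 for C4bpb. Capitals mark matches on either strand to TTCNNNGAA (STAT type), TTGCNNAA (C/EBP type) and the NF-kB-type motif, none of which overlap here.
C3: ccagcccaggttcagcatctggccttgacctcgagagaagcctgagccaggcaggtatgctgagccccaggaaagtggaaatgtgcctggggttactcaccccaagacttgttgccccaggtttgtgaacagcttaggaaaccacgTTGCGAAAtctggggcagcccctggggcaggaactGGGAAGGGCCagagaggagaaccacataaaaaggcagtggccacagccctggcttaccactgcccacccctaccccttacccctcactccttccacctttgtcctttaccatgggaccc
C4bpa: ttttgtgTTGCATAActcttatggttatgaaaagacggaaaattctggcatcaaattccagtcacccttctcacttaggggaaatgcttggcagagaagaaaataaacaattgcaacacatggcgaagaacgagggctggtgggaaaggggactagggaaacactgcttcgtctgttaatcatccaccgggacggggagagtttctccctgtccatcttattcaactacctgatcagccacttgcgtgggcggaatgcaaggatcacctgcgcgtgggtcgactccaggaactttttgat
C4bpb: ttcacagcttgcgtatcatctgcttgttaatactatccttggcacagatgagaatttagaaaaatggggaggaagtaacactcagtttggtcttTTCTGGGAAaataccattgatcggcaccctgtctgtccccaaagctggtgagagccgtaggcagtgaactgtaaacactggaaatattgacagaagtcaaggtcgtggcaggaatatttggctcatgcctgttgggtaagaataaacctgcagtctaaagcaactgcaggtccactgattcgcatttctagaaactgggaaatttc

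C3 held 1 C/EBP-type and 1 NF-kB-type match, C4bpa 1 C/EBP-type match and C4bpb 1 STAT-type match. Of the 30 genes with a value, 19 had a promoter in the RefSeq table. The C/EBP-type letters were in 7 of these 19, namely C1r, C3, C4bpa, C6, C8a, C8b and Fcnb, against 10.6% of all 33469 promoters of that length. The STAT-type letters were in 2 (C4bpb and C8a), against 8.87%, and the NF-kB-type letters in 3 (C3, C4b and Cd55), against 19.3%. A match describes letters in this window and does not show a bound site.

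C5 to C9 form the terminal pathway, in which C5 is cut to the attractant C5a and C5b, and C6, C7, C8 and C9 join C5b to make the pore. C9, which supplies most of the ring of the pore (gene ID 117512), had values of 0.62 in the miR-27b, 0.03 in the siRNC, -0.11 in the saline and -0.96 in the naive liver. It was 2.98-fold higher in the miR-27b liver than in the naive liver (log2 fold 1.57), the highest fold of the 26 rows in that comparison, and its log2 folds in the siRNC and saline livers were 0.98 and 0.84. C6 had 0.22 in the miR-27b, 0.26 in the siRNC, -0.07 in the saline and -0.45 in the naive liver, the miR-27b and siRNC livers lying close together. The 3 chains of C8 differed little: C8a and C8b, neighbours in the genome, were at 0.36 and 0.43 in the miR-27b liver relative to naive, and C8g, which encodes the lipocalin-like gamma chain, was at -0.21. C8g stood slightly below naive in all 3 hepatectomised livers (-0.21, -0.27 and -0.20 in the miR-27b, siRNC and saline livers).

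C5 is given by 2 rows, which the row names place at a pair of loci. Its first row had values of 0.57 in the miR-27b, -0.01 in the siRNC, 0.00 in the saline and -0.40 in the naive liver, and its log2 fold between the miR-27b and naive livers was 0.97. The second row had few reads, 51 in the miR-27b, 48 in the siRNC, 33 in the saline and 41 in the naive liver. Its log2 fold between the miR-27b and naive livers was 0.35, with an exact conditional binomial 95% interval of -0.28 to 0.98 that covers counting error only. The rows differ in the saline liver, which was at 0.40 relative to naive in the first and at -0.40 (-1.11 to 0.29) in the second.

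C7, the component that anchors the growing complex in the membrane, was the one member past 2-fold between hepatectomised livers among the rows kept. It had values of 0.00 in the miR-27b, 1.44 in the siRNC, -0.08 in the saline and -0.94 in the naive liver, so the siRNC liver stood far above the rest. Its log2 fold was 2.38 in the siRNC liver relative to naive, against 0.94 and 0.86 in the miR-27b and saline livers. C7 was likewise at 1.52 in the siRNC liver relative to saline and at -1.44 in the miR-27b liver relative to siRNC. Its reads were not recovered, and it was in the class of 16 or more reads. With a pseudocount of 5 reads, added to an assumed level, these folds were smaller but stayed past 2-fold. The siRNC liver was then at 1.86 relative to naive and 1.26 relative to saline, and the miR-27b liver at -1.20 relative to siRNC. C7 is known to be made by fibroblasts and other mesenchymal cells as well as hepatocytes. Of 7 stellate cell and fibroblast markers kept, 4 were at least 2-fold higher in the siRNC liver than in the saline liver, with a median of 1.09 and a range of 0.05 to 4.82, where 2.31% of all genes were. They were Lum (4.82), Col1a1 (2.75), Col1a2 (1.42) and Dcn (1.09), and none of the list was at 0 in all libraries. Their part in the C7 value was not tested, and more cells of a type and more RNA per cell cannot be told apart in tissue RNA.

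The soluble regulators keep the cascade in check in plasma. C4bpa and C4bpb encode the alpha and beta chains of C4b-binding protein, which takes apart the classical convertase. C4bpa had values of 0.40 in the miR-27b, 0.0015 in the siRNC, -0.32 in the saline and -1.05 in the naive liver. It was 2.74-fold higher in the miR-27b liver than in the naive liver (log2 fold 1.45), and also past 2-fold in the siRNC liver (1.05), while the saline liver was at 0.73. C4bpb followed the same order of livers, with 0.25, 0.08, -0.30 and -0.82 in the miR-27b, siRNC, saline and naive livers. Its log2 folds against naive were 1.08, 0.91 and 0.52, of which the first was past 2-fold. Serping1 encodes the C1 inhibitor, which also curbs plasma kallikrein, and had 0.45 in the miR-27b, -0.06 in the siRNC, 0.00 in the saline and -0.37 in the naive liver. Its log2 fold between the miR-27b and naive livers was 0.82. Cfi, the protease that inactivates C3b and C4b, had 0.15, 0.00, 0.01 and -0.39 in the miR-27b, siRNC, saline and naive livers, so the 3 hepatectomised livers were alike within 0.15 and all above naive. Clu encodes clusterin, which binds the terminal complex in fluid, and varied least of the 26 rows, with a range of 0.20 over the 4 livers.

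Among membrane regulators only Cd59, which blocks the insertion of C9, passed the filter. It had -0.13 in the miR-27b, -0.17 in the siRNC, 0.00 in the saline and 0.29 in the naive liver, so the naive liver was highest. Its log2 folds against naive were -0.43, -0.46 and -0.29 in the miR-27b, siRNC and saline livers. Cd55, which speeds the decay of convertases, had 1.61 reads in the siRNC library and was at the floor of 1 normalized read in the other 3. Cd46, a cofactor for factor I that in mice is found mainly in the testis, was in the class under 16 reads, with values of -0.97, 0.28, -0.50 and 0.00 in the miR-27b, siRNC, saline and naive livers. For Cd55 and Cd46 the depth was too low to rank the livers.

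The receptors C3ar1 and C5ar1 bind the fragments C3a and C5a on myeloid cells. Both were below the filter. Their reads were not recovered, and both were placed in the class under 16 normalized reads. For C5ar1 the probability of 16 or more was 0.33. C3ar1 had values of 0.58 in the miR-27b, 0.83 in the siRNC, 0.00 in the saline and -2.17 in the naive liver, and log2 folds against naive of 2.75, 3.003 and 2.17. With a pseudocount of 5 reads, added to an assumed level, these folds were 0.90, 1.04 and 0.61. C5ar1 had -0.11 in the miR-27b, 0.00 in the siRNC, 0.47 in the saline and -1.24 in the naive liver, and log2 folds of 1.13, 1.24 and 1.71, which were 0.38, 0.43 and 0.66 with that pseudocount. In both genes the lowest deposited value was that of the naive liver, with no counting interval to set beside it. Fcnb, a ficolin that mouse myeloid cells make, had 6 reads in the miR-27b, 4 in the siRNC, 2 in the saline and 1 in the naive liver. The log2 fold of Fcnb between the miR-27b and naive livers was 2.62, with a counting interval of -0.43 to 8.14, which includes no difference.

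**Figure D2:**
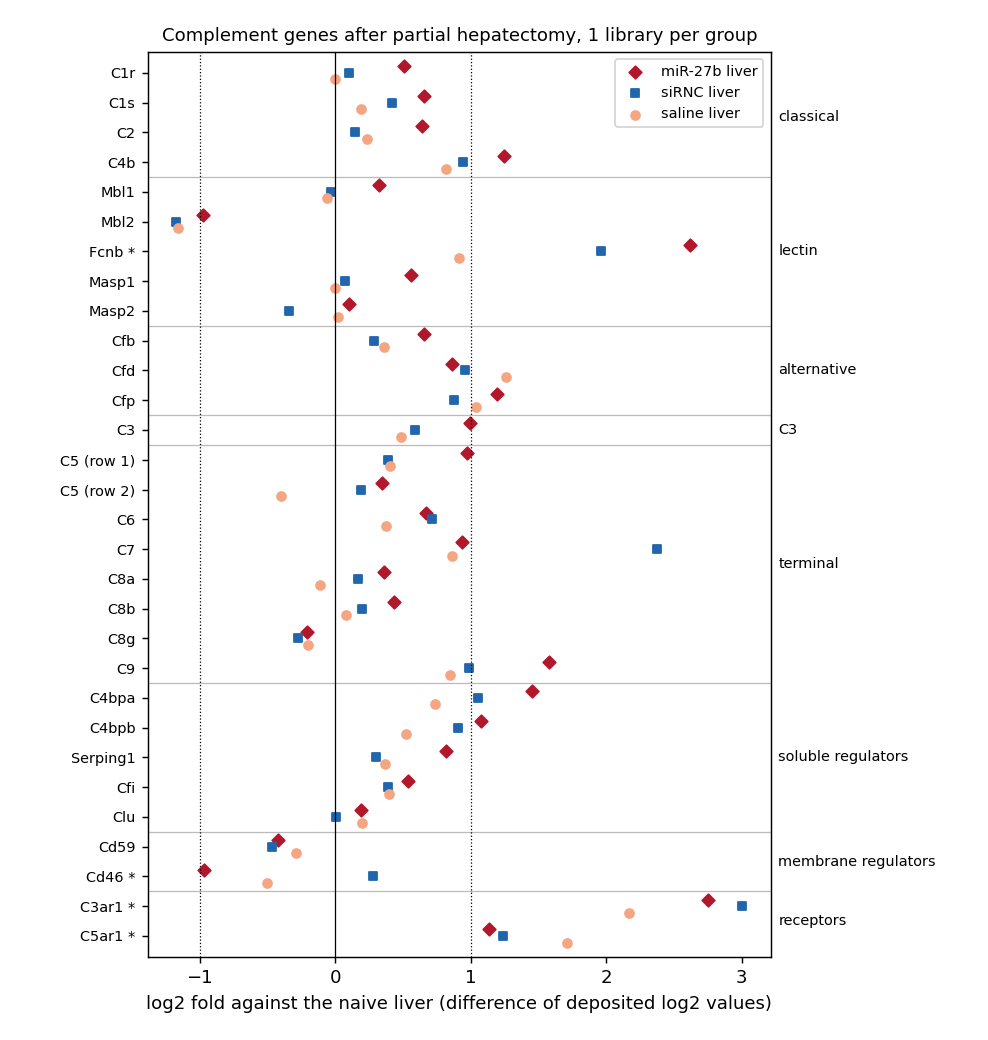
Log2 fold against the naive liver (horizontal axis) of the complement genes, 1 row per gene and 2 for C5, grouped by role, with diamonds for the miR-27b, squares for the siRNC and circles for the saline liver. Asterisks mark genes below the filter on low levels, dotted lines 2-fold, and Cd55 is left out because only 1 library was above the floor. The diamonds lie furthest right in most rows, C7 stands out in the siRNC liver at 2.38, and Mbl2 lies near -1 in all 3 livers.

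Between hepatectomised livers, the complement genes differed mainly by small shifts towards the miR-27b liver. Relative to the siRNC liver, none of 26 rows was at least 2-fold higher in the miR-27b liver and 1, C7, lay below that limit on the other side, where 2.92% and 2.47% of all genes did (5.39% either way). Yet 23 of 26 rows were above 0, against 50.5% of all genes, and their median was 0.27, against 0.0034 for all genes. C9 (0.59), the first row of C5 (0.58), Serping1 (0.51), C2 (0.49), Masp1 (0.49), Masp2 (0.44), C3 (0.41) and C1r (0.40) led, and below 0 were C7 (-1.44), Cfd (-0.10) and C6 (-0.04). Apart from C7, no row was more than 1.51-fold apart. The 8 hepatocyte markers had a median of 0.25 in the same comparison, with 6 of them above 0.

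Relative to the saline liver, none of 26 rows passed 2-fold in either direction in the miR-27b liver, where 2.43% of all genes were higher and 1.99% lower (4.42% either way). Above 0 were 22 rows, against 50% of all genes, and the median was 0.39, against -0.0005 for all genes. The second row of C5 (0.75; counting interval 0.09 to 1.43), C9 (0.73), C4bpa (0.72), the first row of C5 (0.57), Masp1 (0.56) and C4bpb (0.55) were highest. Cfd was lowest at -0.40, and Cd59, C8g and Clu lay between -0.13 and -0.0062. The 8 hepatocyte markers had a median of 0.12 in this comparison, with 6 of them above 0.

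The siRNC liver relative to the saline liver showed no such shift. Of 26 rows, 1, C7, was at least 2-fold higher and none at least 2-fold lower, where 2.31% and 1.82% of all genes were (4.14% either way). Above 0 were 14 rows, against 49.1% of all genes, and the median was 0.05, against -0.0075 for all genes. Apart from C7 and the second row of C5 (0.59; counting interval -0.08 to 1.27), the rows lay between -0.36 for Masp2 and 0.39 for C4bpb. These 3 comparisons share libraries in pairs, so a gene displaced in 1 liver shows in 2 of them.

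**Figure D3:**
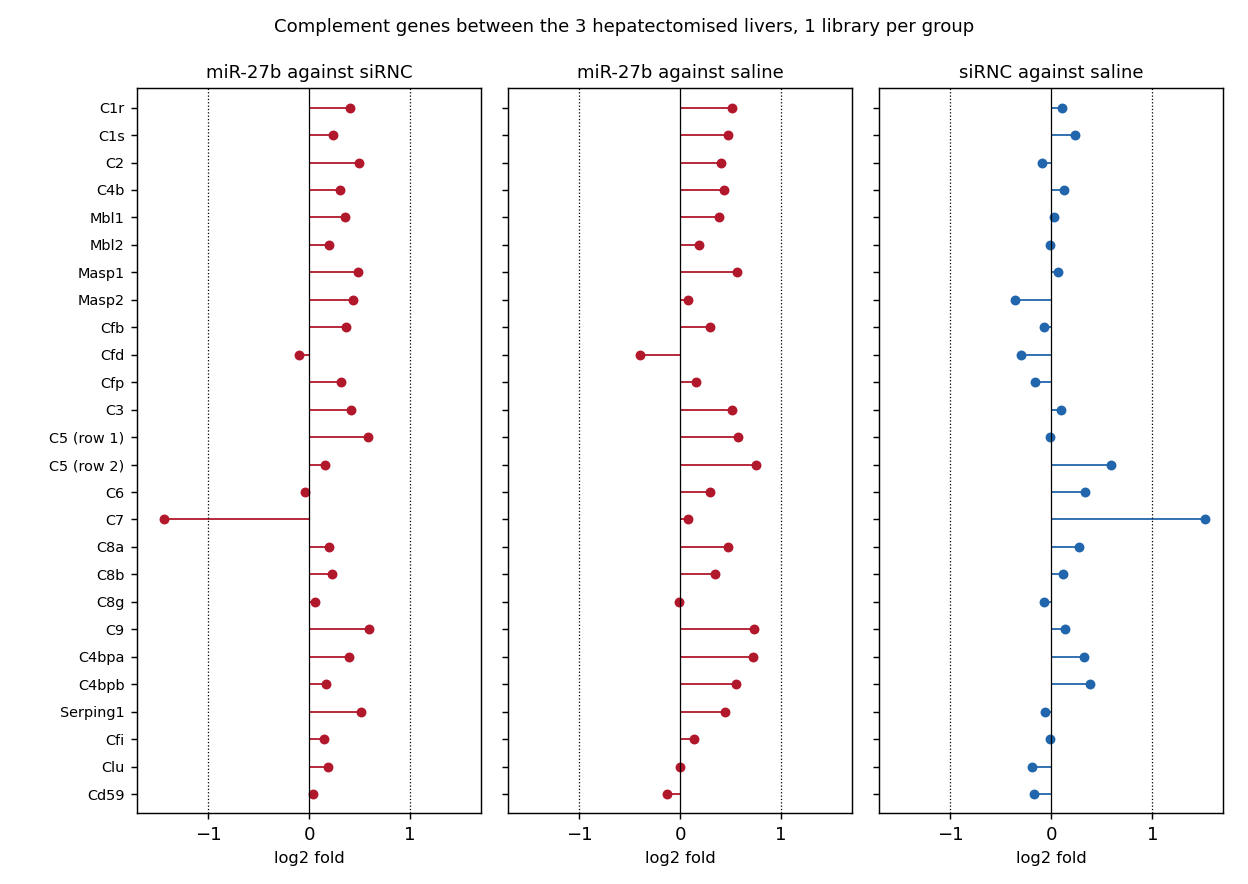
Log2 fold (horizontal axes) of the 26 complement rows kept, between the miR-27b and siRNC livers (left), the miR-27b and saline livers (middle) and the siRNC and saline livers (right). Each point is 1 row, and dotted lines mark 2-fold. The left and middle panels lie mostly right of 0 with medians of 0.27 and 0.39, the right panel is spread about 0 with a median of 0.05, and C7 is the one point past 2-fold.

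**Figure D4:**
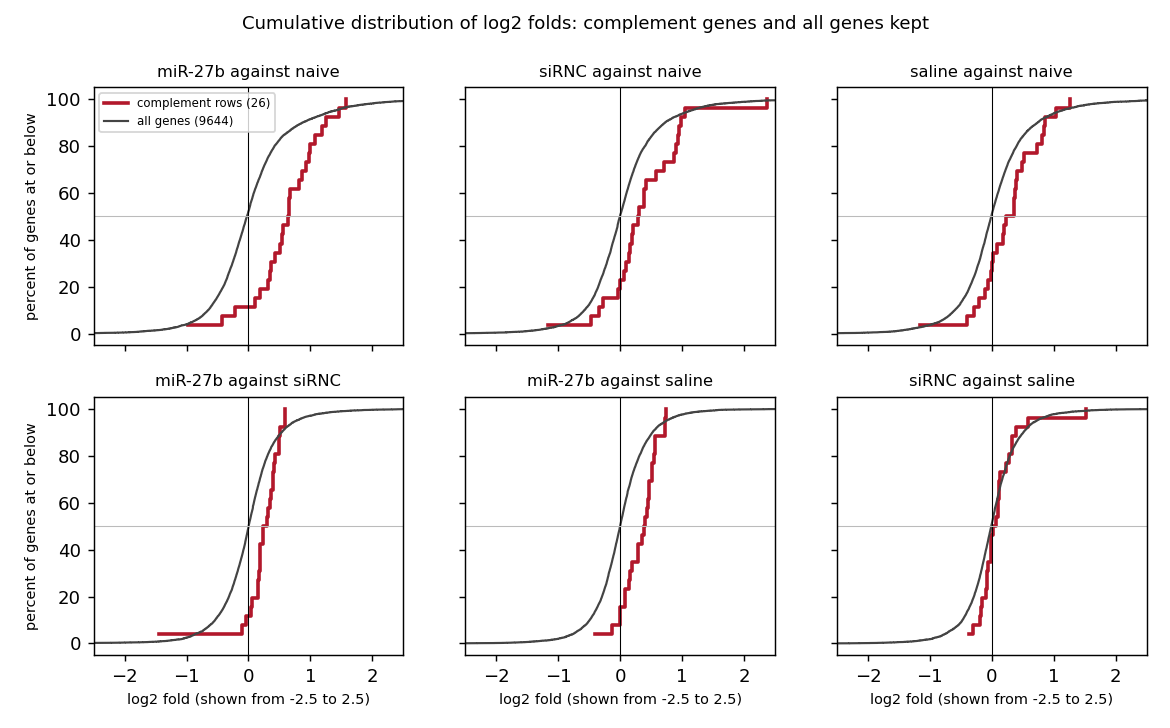
Percent of genes (vertical axes) at or below each log2 fold (horizontal axes) for the 26 complement rows in red and all 9644 genes kept in grey, in 6 comparisons. The red curve lies right of the grey one over most of its height in the upper 3 panels and in those that set the miR-27b liver against the siRNC and saline livers, and close to it for siRNC against saline.

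Acute phase plasma proteins had shifts in the same comparisons. Of 13 such genes, all kept, 12 were above 0 in the miR-27b liver relative to siRNC, with a median of 0.61 and a range of -4.16 (Hamp) to 4.20 (Lcn2). Relative to naive their medians were 1.46, 0.92 and 0.85 in the miR-27b, siRNC and saline livers, and between the siRNC and saline livers -0.12. The 8 hepatocyte markers had medians of 0.10, -0.18 and -0.01 in the miR-27b, siRNC and saline livers relative to naive, and of 0.25 in the miR-27b liver relative to siRNC. The part of either in the complement values was not tested.

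The rest of the pathway was read from a list of 27 further symbols, of which 23 had a row, 21 a value other than 0 and 19 passed the filter. Relative to naive, 8 of these 19 were at least 2-fold higher in the miR-27b liver, 6 in the siRNC liver and 8 in the saline liver, where 8.56%, 6.23% and 6.07% of all genes were, and none was at least 2-fold lower. Their medians were 0.85, 0.38 and 0.44, against all-gene medians of -0.02, -0.0032 and -0.007. The 3 chains of C1q, the antibody-binding head of the classical pathway, went together: C1qa was at 1.33, 0.996 and 1.32 in the miR-27b, siRNC and saline livers, C1qb at 1.29, 1.02 and 1.25, and C1qc at 1.38, 1.004 and 1.12. All 3 chains were past 2-fold in each liver, apart from C1qa in the siRNC liver, while their proteases C1r and C1s were under 2-fold in all of them.

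Receptors and adhesion molecules that bind complement fragments were also above naive. Vsig4, a C3b receptor of Kupffer cells, was at 1.62, 1.26 and 1.22 in the miR-27b, siRNC and saline livers, and Itgam, the alpha chain of complement receptor 3, at 1.80, 1.22 and 1.69. Itgb2, its beta chain, was at 1.27, 0.64 and 1.16, and Gpr77, the second C5a receptor, at 0.85, 1.38 and 1.33. Colec10, a collectin of the lectin pathway, was at 1.51, 1.01 and 1.01, and Cd93, a membrane protein first described as a C1q receptor, at 1.03, 0.38 and 0.72. The row named Fcn1, which lists Fcna among its aliases and was looked up after Fcna was found to have no row, was at 1.17, 0.84 and 1.30.

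The other kept genes of that list were under 2-fold apart in all 6 comparisons. Of these, Crp is given by choice after its values were seen. Crp, the C-reactive protein that can bind C1q, was at 0.69, 0.14 and 0.35 in the miR-27b, siRNC and saline livers relative to naive. Susd4, a gene of the list below the filter, had 3 reads in the naive library and was at the floor in the hepatectomised livers. Its log2 fold against naive was -1.62 in each of them, at a depth too low to rank the livers. Between the hepatectomised livers none of the 19 was at least 2-fold apart, where 5.39% of all genes were between the miR-27b and siRNC livers, 4.42% between the miR-27b and saline livers and 4.14% between the siRNC and saline livers. The medians of the 19 in these comparisons were 0.36, 0.23 and -0.04.

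Macrophage markers were above naive in the same livers as C1q, Vsig4, Itgam and Cfp. Of 12 markers of macrophages and Kupffer cells 10 were kept, and 9 were at least 2-fold higher than naive in the miR-27b, 5 in the siRNC and 8 in the saline liver, where 8.56%, 6.23% and 6.07% of all genes were. Their medians were 1.52, 1.12 and 1.33. Their log2 folds ran from 0.70 (Mrc1) to 2.65 (Marco) in the miR-27b liver, and Timd4 was at 0 in all libraries. Their part in the values of these complement genes was not tested.

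**Figure D5:**
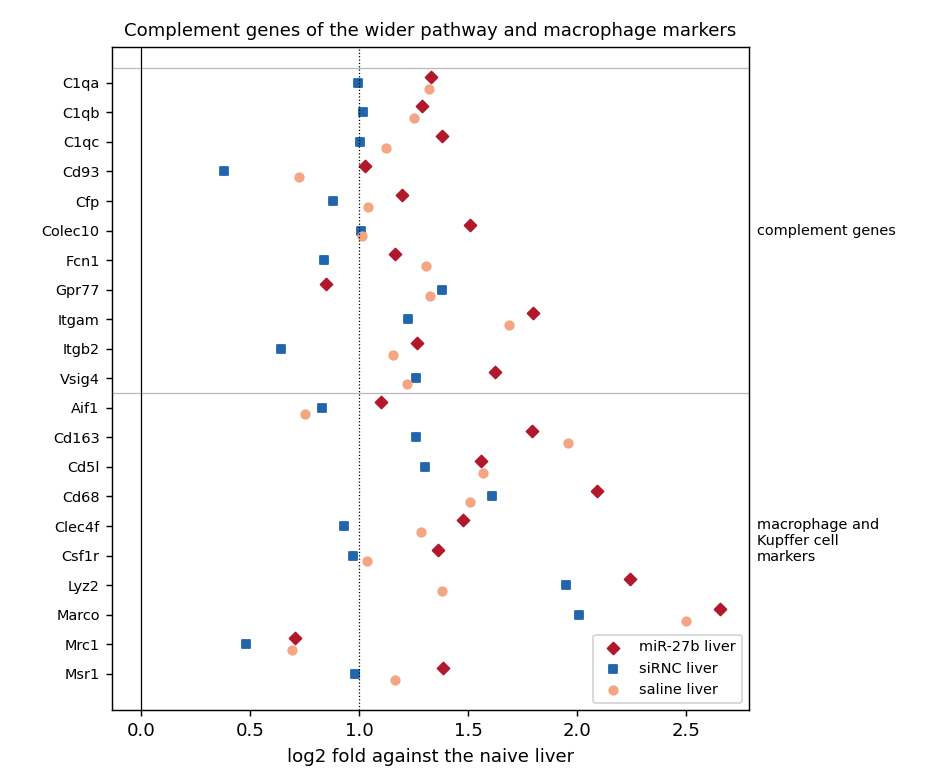
Log2 fold against the naive liver (horizontal axis) of complement genes (above) and of 10 macrophage and Kupffer cell markers (below). The complement genes are Cfp, Fcn1 and those of the wider list that were kept and at least 2-fold apart in any comparison. Susd4, below the filter, is not shown. Diamonds stand for the miR-27b, squares for the siRNC and circles for the saline liver. All points lie right of 0, and the siRNC value is the lowest of the 3 for C1qa, C1qb and C1qc.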

How the data were processed

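Sequencing reads were processed by the submitters. DESeq and the rat build rn5 are named per the submitters' processing notes, while the sources used here do not give the aligner or counter. The deposited values are called normalized per the file headers; that they are log2 values relative to a baseline of each gene was read from the values. They give differences within a gene and no levels or read depth. From them, size factors, and read numbers of 2569 genes, were recovered from steps in the values, 68.7% of these genes in whole reads. The other genes were placed in level classes of at least 16 or 256 normalized reads from the binary digits of the values. Genes were kept at a mean of 10 reads or in the class of 16 (probability 0.5 or more). A fold is the difference of 2 deposited log2 values, with no pseudocount, and a call is 2-fold. With 1 library per group no p-value was computed. Intervals are exact conditional binomial and cover counting error only.

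All members are accounted for, with full values for C3 and those at least 2-fold apart in any of 6 comparisons; genes of the wider list are named under the same limit. Members and lists were chosen with earlier results of these data known. Alternatives changed the filter, pseudocount, centring, threshold and summary. The recovery was tested on simulated data. Python 3.11.15, numpy 2.4.6, pandas 2.3.3, scipy 1.17.1 and matplotlib 3.10.9 were used.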

Additional observations from a re-analysis of the deposited data

How the results depend on the processing

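The median log2 fold of the complement genes kept its direction in all 6 comparisons under each alternative run. Between the siRNC and saline livers it was 0.05, against 0.10 with no filter and 0.11 as a mean. Centring each library on the median of all genes kept tests nothing, since that median is 0 in all 4 libraries. Centring each comparison on the median fold of all genes, an alternative chosen after seeing the data, gave 6 rows in the miR-27b liver against naive, C3 being added, and the same count in the other 5 comparisons. The number of rows at least 2-fold apart depended on the limits. With no filter on low levels it was 8 in the miR-27b liver against naive (5 with the filter), 6 in the siRNC liver (3) and 5 in the saline liver (3), 2 between the miR-27b and siRNC livers (1), 1 between the miR-27b and saline livers (0) and 2 between the siRNC and saline livers (1). With the stricter filter it was 1 in the saline liver against naive, 0 between the miR-27b and siRNC livers and 0 between the siRNC and saline livers, because Cfd, Cfp and C7 were no longer included. With a pseudocount of 5 reads it was 1 in the saline liver against naive, Cfd then being at 0.90 and Cfp at 0.73, and 4 in the miR-27b liver against naive, Cfp then being at 0.85. At a limit of 1.5-fold it was 15, 10 and 7 in the miR-27b, siRNC and saline livers against naive, 2 between the miR-27b and siRNC livers, 3 between the miR-27b and saline livers and 2 between the siRNC and saline livers. The pseudocount moved 36 of 186 single-gene folds; for it, a gene with no recovered reads was set to the lowest level of its class. No paired analysis was possible because each group has 1 library and the labels give no replicate numbers, and for the same reason no replicate could be left out. Depth limits Fcnb, Cd55, Cd46, C3ar1 and C5ar1 most.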

Other observations

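A row described as similar to C1s (RGD1561715) had deposited values of 0.43 in the miR-27b, -0.02 in the siRNC, 0.00 in the saline and -0.74 in the naive liver. Its log2 folds against naive were 1.16, 0.72 and 0.74 in the miR-27b, siRNC and saline livers, against 0.66, 0.42 and 0.19 for C1s itself, and how reads were divided between the 2 rows is not known here.

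Neutrophil markers were measured by few genes. Camp, Elane, Mpo and Ngp were listed at 0 in all 4 libraries, and S100a9 and Ncf1 were the 2 of 9 kept. S100a9 was at 5.19, 3.96 and 2.79 and Ncf1 at 2.08, 1.40 and 1.12 in the miR-27b, siRNC and saline livers relative to naive.

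All 4 red cell markers were at least 2-fold higher than naive in the 3 hepatectomised livers, with medians of 2.55, 2.31 and 2.73 in the miR-27b, siRNC and saline livers. No marker of T and NK cells or of B and plasma cells passed the filter on low levels.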
